A study of Bos taurus and Sus scrofa with 6 samples.

Results

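The genes described here are those that Leydig cells, the hormone-producing cells between the tubules of the testis, use to make androgens, together with INSL3, the peptide hormone of the same cells. They were chosen by symbol: LHCGR, STAR, CYP11A1, CYP17A1, HSD3B, HSD3B1, INSL3, FDX1 and GSTA3. Of these 9 symbols, 8 matched the cattle gene table of 19994 genes, where GSTA3 has 2 identifiers and therefore 9 rows were followed, and 5 matched the pig gene table of 22694 genes. HSD3B1 was not analysed here in either species, and LHCGR, HSD3B and GSTA3 were not analysed here in pig. The cattle identifiers are ENSBTAG00000016573 for LHCGR, ENSBTAG00000033345 for STAR, ENSBTAG00000006934 for CYP11A1, ENSBTAG00000014335 for CYP17A1, ENSBTAG00000006769 for HSD3B, ENSBTAG00000025775 for INSL3, ENSBTAG00000011793 for FDX1 and ENSBTAG00000021516 and ENSBTAG00000032642 for GSTA3. In pig they are ENSSSCG00000034942 for STAR, ENSSSCG00000025273 for CYP11A1, ENSSSCG00000010591 for CYP17A1, ENSSSCG00000013887 for INSL3 and ENSSSCG00000035945 for FDX1. Their transcripts were counted in single-cell RNA-sequencing libraries of testes removed by castration from 3 Holstein cattle, 4.5 months old, and 3 pigs of mixed breed, 3 months old. All 6 males were prepubertal and no group was treated or altered genetically. Each library came from 1 animal and was made from a suspension of live cells after digestion with trypsin and collagenase, so the species differ in age, breed, genome annotation and animals at once. In either species the labels of animals 2 and 3 share a testis number and carry separate animal tags, while animal 1 has another number. All were taken as separate animals because the methods state 3 per species.

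Leydig cells receive luteinizing hormone through the receptor LHCGR, which raises cyclic AMP. STAR then moves cholesterol to the inner mitochondrial membrane, where CYP11A1 cuts its side chain to give pregnenolone with electrons carried by ferredoxin, the product of FDX1. HSD3B and CYP17A1 carry the steroid on toward androgens outside the mitochondrion, GSTA3 is a glutathione transferase that can also isomerize steroid intermediates, and INSL3 directs the descent of the testis in the fetus and marks Leydig cells afterwards.

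A total of 3444, 8138 and 5900 cells were kept from cattle 1, 2 and 3, and 3162, 3808 and 2236 cells from pig 1, 2 and 3. The median depth ran from 789 to 4462 UMIs (unique transcript molecules) per cell in cattle and from 889 to 5878 in pigs, with cattle 1 and pig 1 the shallowest. Cells were clustered without the genes described here, and clusters were named from other markers. A cluster of another type was left unnamed where at least 2 of its 10 leading genes were Leydig markers. For this step the Leydig markers included LHCGR, STAR, CYP11A1, CYP17A1, HSD3B and INSL3. Ranges over the other named types may therefore leave out clusters high in these genes. The Leydig-like cells numbered 994, 461 and 389 in cattle 1, 2 and 3 and 897, 82 and 78 in pig 1, 2 and 3, and made up 28.9% of the cells of cattle 1 and 28.4% of pig 1 against 2.15% to 6.59% of the other libraries. Cattle 1 and pig 1 were also the libraries with a testis number of their own, so depth and this share went along with that label. Of the markers used for the name, 3 of 12 in cattle, among them ALDH1A1 and SCARB1, and 4 of 11 in pig, among them CYB5A, NR5A1 and SCARB1, were at least 2-fold higher in Leydig-like than in all other cells of every animal. Levels are given as CPM, the UMIs of a gene per 1000000 UMIs summed over the cells of a type in an animal. Other markers on the list went the other way. DLK1 and IGF1 were not higher in Leydig-like cells of any animal, with means of 0.66 against 18.9 CPM and 1.31 against 11.7 CPM in cattle, and INHA was lower in 2 of 3 animals of each species. CYB5A averaged 9.86 CPM in the Leydig-like and 11 in the other cells of cattle, and PRLR had no UMI in Leydig-like cells. Markers of stromal cells summed to 530 to 1218 CPM in the Leydig-like cells of cattle, highest in cattle 2, against 7096 to 10628 CPM in stromal-like cells. In pigs they summed to 445 to 1185 CPM, and Sertoli markers to 106 to 318 CPM against 874 to 2023 in Sertoli-like cells. Their part in the results was not tested. Clusters that could not be named held 29, 157 and 672 cells of cattle 1, 2 and 3 and 1432, 288 and 277 of pig 1, 2 and 3, and count among all other cells in the tests. Between 8 and 61 cell barcodes were shared by any pair of libraries, at most 1.21% of the smaller one. The share of mitochondrial UMIs was higher in Leydig-like cells than over all cells in each of the 6 libraries, at 2.13% to 7.96% against 1.60% to 4.92%.

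The stretches before the start sites of 4 pig genes are given here because these genes were measured together in the Leydig-like cells described next. They are the 250 bases before the start in RefSeq's annotation of Sscrofa11.1, the build of the pig files, on the plus strand. The stretch of INSL3 is chr2:59929341-59929590, that of STAR chr15:48377347-48377596, that of FDX1 chr9:38375897-38376146 and that of CYP11A1, before its curated transcript, chr7:59175536-59175785. Capitals mark the 1 match to AAGGTCA or AAGGCCA, the core bound by NR5A1, a nuclear receptor of steroid-making cells.
INSL3: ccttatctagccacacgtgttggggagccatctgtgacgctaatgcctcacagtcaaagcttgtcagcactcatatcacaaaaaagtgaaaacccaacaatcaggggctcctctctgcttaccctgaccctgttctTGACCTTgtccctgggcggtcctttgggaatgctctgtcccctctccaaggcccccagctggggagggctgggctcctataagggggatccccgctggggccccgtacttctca
STAR: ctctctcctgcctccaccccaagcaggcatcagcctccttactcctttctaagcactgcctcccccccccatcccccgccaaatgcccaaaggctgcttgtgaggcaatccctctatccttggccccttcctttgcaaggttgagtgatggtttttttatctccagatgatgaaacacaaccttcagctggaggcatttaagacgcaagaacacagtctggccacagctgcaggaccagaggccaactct
CYP11A1: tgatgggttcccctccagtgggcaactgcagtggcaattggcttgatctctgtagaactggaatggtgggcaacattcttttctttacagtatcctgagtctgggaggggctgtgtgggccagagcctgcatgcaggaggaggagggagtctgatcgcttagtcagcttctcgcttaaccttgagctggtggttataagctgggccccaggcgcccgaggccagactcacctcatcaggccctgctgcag
FDX1: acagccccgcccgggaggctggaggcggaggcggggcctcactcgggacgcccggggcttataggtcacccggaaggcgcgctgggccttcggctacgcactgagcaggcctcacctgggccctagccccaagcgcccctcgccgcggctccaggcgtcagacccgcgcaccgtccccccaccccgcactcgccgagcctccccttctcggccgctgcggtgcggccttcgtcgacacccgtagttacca
The match in INSL3 lies on the minus strand, begins 114 bases before the start and is therefore printed as TGACCTT. With the first 50 transcribed bases added, both strands searched and overlapping matches allowed, 2086 of 20320 promoters of protein-coding genes (10.3%) held a match, and the windows of STAR, CYP11A1 and FDX1 held none of these letters. The RefSeq entry of CYP17A1, at chr14:113805616-113820445 on the minus strand, is partial at its beginning, so no window was taken. CYP17A1 overlaps BORCS7 on the other strand and FDX1 overlaps an antisense noncoding RNA. The deposited counting does not name its strand setting, so reads of these overlapping genes may not be told apart.

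Every one of these genes was higher in Leydig-like cells than in the remaining cells of the same testes. In cattle 9 of 9 rows passed the test, with a median log2 fold change of 4.72 against -0.35 over all 14202 genes tested, and 6.05% of all genes were called higher. In pigs 5 of 5 passed, with a median log2 fold change of 6.12 against -0.50 over 15216 genes, and 4.83% of all genes were called higher. For comparison, 9.46% of genes were called lower in cattle and 3.56% in pigs. The cells had been grouped from the other genes of the same cells, so these tests are no independent evidence of the grouping. They set the size of a difference against the spread among 3 animals, estimated with information shared among genes. Each animal gave 1 Leydig-like and 1 other sum, and every log2 fold change comes from the quasi-likelihood test of edgeR, with p adjusted over all genes by the Benjamini-Hochberg method. With the animal as a block in the fit, the same 9 and 5 rows passed, and 1898 genes were called higher in cattle and 1480 in pigs. Scaled by library size alone, the median of all genes moved to -0.87 in cattle, with 460 genes called higher and 2925 lower in place of 859 and 1343, and 9 of 9 rows were still above it.

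**Figure D1:**
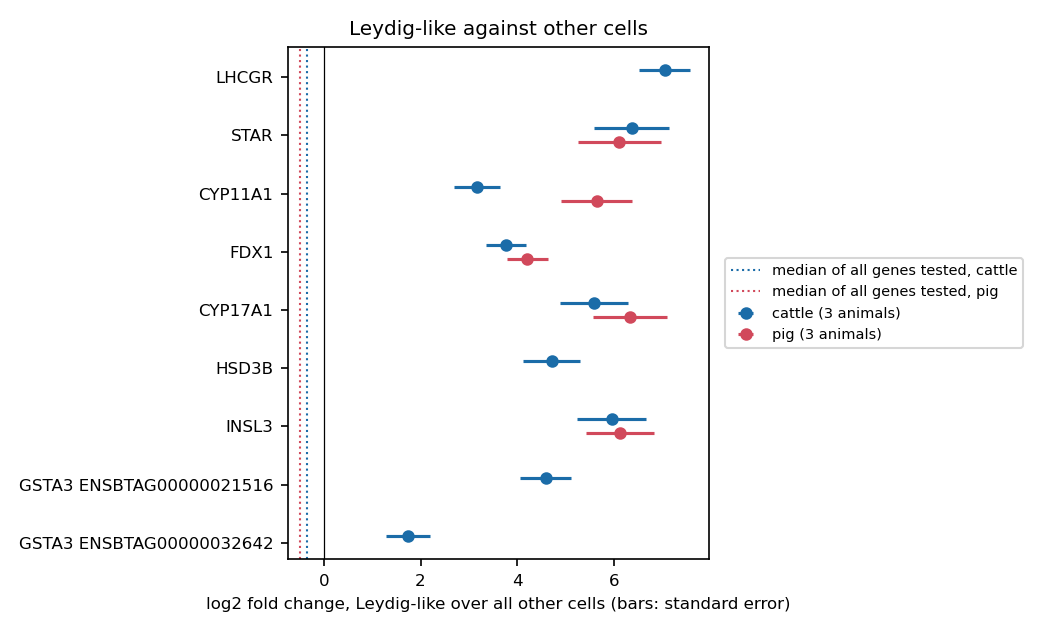
Log2 fold change (x axis) of each gene (y axis) in Leydig-like cells over all other cells, by edgeR, with bars for the standard error, from 3 cattle (blue) and 3 pigs (red). Dotted lines mark the median of all genes tested, and all 14 points lie to the right of them, from 1.74 for the GSTA3 row ENSBTAG00000032642 to 7.05 for LHCGR in cattle.

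The receptor LHCGR had the largest log2 fold change of the cattle rows, 7.05 (SE 0.53, adjusted p = 0.00020). Its level in Leydig-like cells was 52.7, 123 and 131 CPM in cattle 1, 2 and 3. In the other named cell types it lay between 0 and 4.81 CPM. Barcodes with up to 50 UMIs, treated as empty droplets, held 46.3, 19.5 and 7.22 CPM in cattle 1, 2 and 3. The Leydig-like level of cattle 1 thus lay within the counting interval of its empty droplets, 34.0 to 61.6 CPM. A UMI of LHCGR was found in 4.83% ± 2.28 (SD, n = 3) of Leydig-like cells after each cell was thinned to 500 UMIs, and in 25.2% ± 21.9 without thinning, against 0.086% ± 0.046 and 0.28% ± 0.11 of all other cells. The unthinned share of Leydig-like cells ran from 5.23% in cattle 1 through 21.9% in cattle 2 to 48.6% in cattle 3, in the order of their depth.

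STAR, the cholesterol carrier, differed widely among animals. The Leydig-like cells held 1580 CPM of STAR in cattle 1, 8340 in cattle 2 and 1964 in cattle 3, and 300 in pig 1, 264 in pig 2 and 1653 in pig 3. Cattle 2 and pig 3 stood apart from the other animals of their species. Even the lowest animal was above every other named cell type, which reached 182 CPM in cattle and 51.6 in pigs. Empty droplets held 1120, 1308 and 297 CPM of STAR in cattle 1, 2 and 3, also above every other named type of the same animal. STAR rose by 6.37 on the log2 scale (SE 0.77, adjusted p = 0.00088) in cattle, and the pig value was 6.12 (SE 0.86, adjusted p = 0.00094). At 500 UMIs, 61.0% ± 19.9 of Leydig-like cells had a UMI of STAR in cattle and 25.4% ± 21.3 in pigs, against 3.49% ± 1.84 and 0.58% ± 0.44 of other cells (unthinned, 85.1% ± 15.6 and 53.6% ± 36.1 against 11% ± 2.20 and 4.21% ± 3.92).

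SCARB1 and HMGCS1, which serve cholesterol supply, were highest in the same animals as STAR. SCARB1, the receptor for high-density lipoprotein, was at 985 CPM in the Leydig-like cells of cattle 2 against 380 and 444 in cattle 1 and 3, and at 619 in pig 3 against 322 and 295 in pig 1 and 2. HMGCS1, an early enzyme of cholesterol synthesis, was at 1315 CPM in cattle 2 against 74.6 and 133, and at 1830 in pig 3 against 219 and 113. In the other cells of cattle 2 these genes were at 32.5 and 48.5 CPM, with 22.7 to 35.6 CPM in the other cells of cattle 1 and 3. SCARB1 was among the markers that named the Leydig-like clusters, HMGCS1 was picked after its values were seen, and 3 animals per species allow no test of this pattern.

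**Figure D2:**
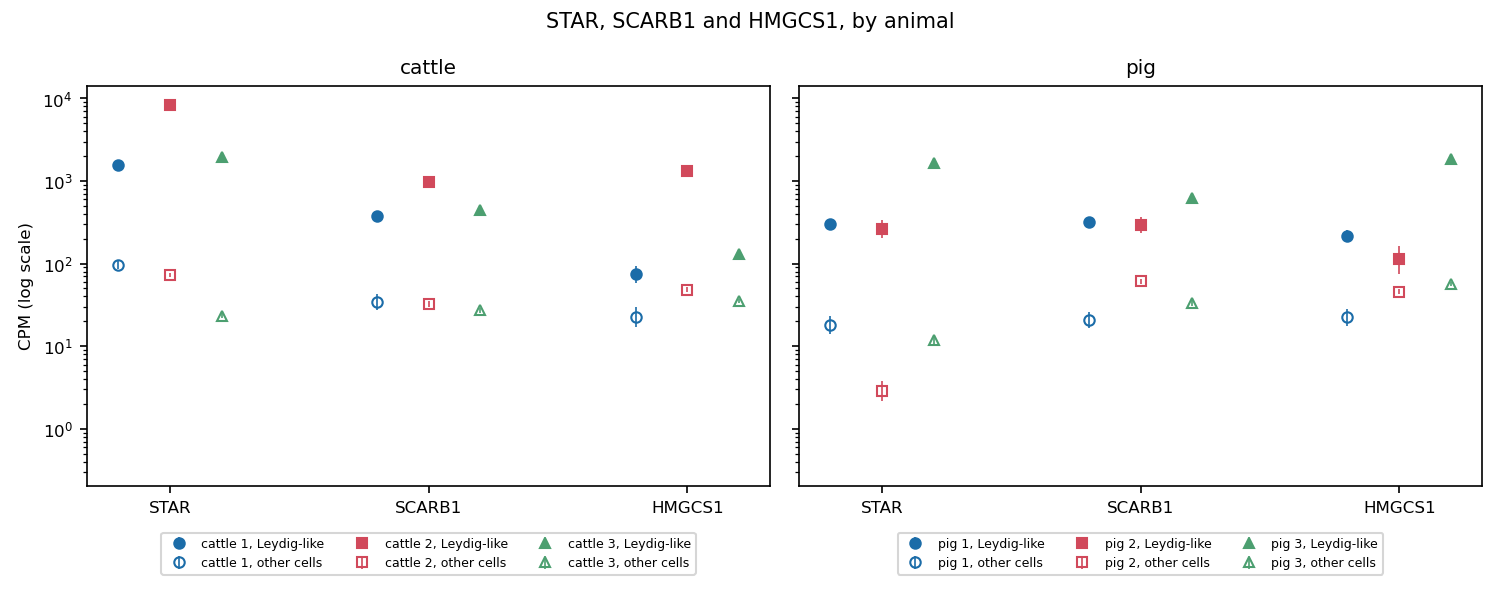
CPM (log scale, y axis) of STAR, SCARB1 and HMGCS1 (x axis) in Leydig-like cells (filled) and all other cells (open) of each animal, with exact Poisson intervals that cover counting error only. Cattle 2 (red squares, left) and pig 3 (green triangles, right) are highest for the 3 genes in Leydig-like cells.

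The level of STAR also differed among Leydig-like cells of a single animal. Most Leydig-like cells of cattle 2 were the 338 in cluster 18, of which 99.4% came from that animal, and the 107 in cluster 6, which was mostly cattle 1, with the rest in cluster 14. STAR was at 11191 CPM in the former and 1912 in the latter, FDX1 at 401 and 106 CPM and LHCGR at 148 and 55.0 CPM. CYP11A1 was at 805 and 681 CPM and HSD3B at 525 in both. CYP17A1 was at 5779 and 2813 CPM and INSL3 at 98508 and 54864. The stromal gene DCN was at 303 CPM in cluster 18 and 1146 in cluster 6, and its part in these values was not tested. In pigs, STAR differed between animals within cluster 5, with 286 CPM in the 66 cells of pig 2 and 1723 in the 75 cells of pig 3. Clusters were made from these cells, with SCARB1 and HMGCS1 among the leading genes of cluster 18, and their values are a description.

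CYP11A1, the side-chain cleavage enzyme, was found in a second cell type of cattle. In Leydig-like cells it was at 300, 765 and 268 CPM in cattle 1, 2 and 3 and at 2000, 1363 and 2062 CPM in pig 1, 2 and 3. Empty droplets held 245, 147 and 49.4 CPM in cattle 1, 2 and 3. The cattle log2 fold change of 3.18 (SE 0.48, adjusted p = 0.0025) and the pig one of 5.65 (SE 0.73, adjusted p = 0.00059) both passed. Without cattle 2 the cattle gene no longer passed, with an adjusted p of 0.058, the highest of 13 alternatives, which went down to 3.6e-54 with the animal as a block. Peritubular myoid-like cells, the contractile cells around the tubules, held 234, 195 and 112 CPM in cattle 1, 2 and 3, in each animal below the Leydig-like cells of the same animal and above every other named type. The next type was interstitial stromal-like cells, with 41.3 ± 30.4 CPM, and endothelial-like cells had no UMI of it in any library. No pig cluster was named myoid-like, and the other named types of pig reached 130 CPM at most. Pig cluster 11, which was not named Leydig-like, held 632 CPM of CYP11A1 in its 108 cells of pig 1. These cells also held 1385 CPM of CYP17A1, 803 of FDX1, 6633 of INSL3 and 3121 of the stromal gene DCN. What these cells are was not tested. At 500 UMIs, 7.67% ± 2.95 of myoid-like cells had a UMI of CYP11A1 (23.3% ± 8.35 unthinned), against 20.4% ± 12.8 of Leydig-like cells (53.2% ± 25.2) and 0.47% ± 0.21 of Sertoli-like cells (3.08% ± 0.72).

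FDX1, the electron carrier of CYP11A1, was at 81.6, 311 and 137 CPM in the Leydig-like cells of cattle 1, 2 and 3. In pigs it was at 2889, 2412 and 2834 CPM, a spread of 261 (SD, n = 3) around 2712. FDX1 rose by 3.77 on the log2 scale (SE 0.42, adjusted p = 0.00061) in cattle, and the value for pigs was 4.21 (SE 0.42, adjusted p = 9.2e-05). Germ-like cells were next in cattle 2 and 3, with 52.0 and 36.4 CPM, and macrophage-like cells in cattle 1, with 54.2 CPM from 3 UMIs. All named pig cell types held at least 79.7 CPM. At 500 UMIs, 9.45% ± 6.07 of cattle and 71.7% ± 1.11 of pig Leydig-like cells had a UMI of FDX1, against 0.76% ± 0.14 and 7.36% ± 3.08 of other cells (unthinned, 33.4% ± 22.3 and 95.7% ± 7.47 against 4.19% ± 2.87 and 39.1% ± 11.8).

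HSD3B, which oxidizes the steroid and shifts its double bond, was at 195, 515 and 172 CPM in the Leydig-like cells of cattle 1, 2 and 3. Empty droplets held 224, 110 and 32.5 CPM, which in cattle 1 was above the Leydig-like cells. The difference from other cells was 4.72 on the log2 scale (SE 0.59, adjusted p = 0.00095). Myoid-like cells held 30.5 ± 13.3 CPM, the highest mean of the other named types, and Sertoli-like cells 6.86 ± 6.08. HSD3B belongs to a family of near-identical copies, as does GSTA3, so reads of related genes may be shared and the values of both are uncertain in that respect.

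CYP17A1, which makes the androgen precursors, was at 2662, 4849 and 3797 CPM in cattle 1, 2 and 3 and at 4899, 5830 and 5592 CPM in pig 1, 2 and 3. CYP17A1 rose by 5.60 on the log2 scale (SE 0.70, adjusted p = 0.00095) in cattle, and by 6.34 (SE 0.76, adjusted p = 0.00035) in pigs. Other named types reached 306 CPM in cattle and 165 in pigs, and unnamed cells 258 CPM in pig 1, all under the lowest Leydig-like value. Empty droplets held 1630, 831 and 397 CPM of CYP17A1 in cattle 1, 2 and 3, above every other named type of the same animal. At 500 UMIs, 75.7% ± 8.73 of cattle and 89.0% ± 5.24 of pig Leydig-like cells had a UMI of CYP17A1, against 5.43% ± 5.54 and 3.21% ± 2.89 of other cells (unthinned, 91.7% ± 9.46 and 97.2% ± 3.82 against 15.4% ± 4.84 and 12.6% ± 1.79).

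The GSTA3 row ENSBTAG00000021516 was at 29855, 13813 and 18036 CPM in the Leydig-like cells of cattle 1, 2 and 3. It was higher by 4.59 on the log2 scale (SE 0.52, adjusted p = 0.00065). Among the other named types Sertoli-like cells held most in each animal, at 2709, 1708 and 1345 CPM. Empty droplets held 25480, 8314 and 4610 CPM of this row in cattle 1, 2 and 3. The GSTA3 row ENSBTAG00000032642 was at 20.9, 14.4 and 14.2 CPM in Leydig-like cells and 23.9, 14.4 and 11 CPM in myoid-like cells, so these types overlapped. Endothelial-like cells of cattle 1 held 111 CPM, from 2 UMIs in 26 cells. Its log2 fold change over all other cells was 1.74 (SE 0.46, adjusted p = 0.031), and its call was lost in 4 of 13 alternatives, with adjusted p up to 0.19 without cattle 2 and without cattle 3.

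INSL3, the peptide hormone, took a large part of the transcripts of Leydig-like cells. Its level was 147070, 84993 and 101430 CPM in cattle 1, 2 and 3 and 30273, 34542 and 39377 CPM in pig 1, 2 and 3. In the median Leydig-like cell, INSL3 took 15.1%, 9.14% and 9.46% of the UMIs in cattle 1, 2 and 3 and 2.78%, 3.53% and 4.13% in pig 1, 2 and 3. On the log2 scale INSL3 was higher by 5.96 (SE 0.71, adjusted p = 0.00084) in cattle and by 6.13 (SE 0.70, adjusted p = 0.00021) in pigs. The lowest level in Leydig-like cells was above the highest in any other named type, 6460 CPM in cattle and 1262 in pigs, and above the unnamed cells, which reached 9254 CPM in cattle 1 and 1588 in pig 1.

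**Figure D3:**
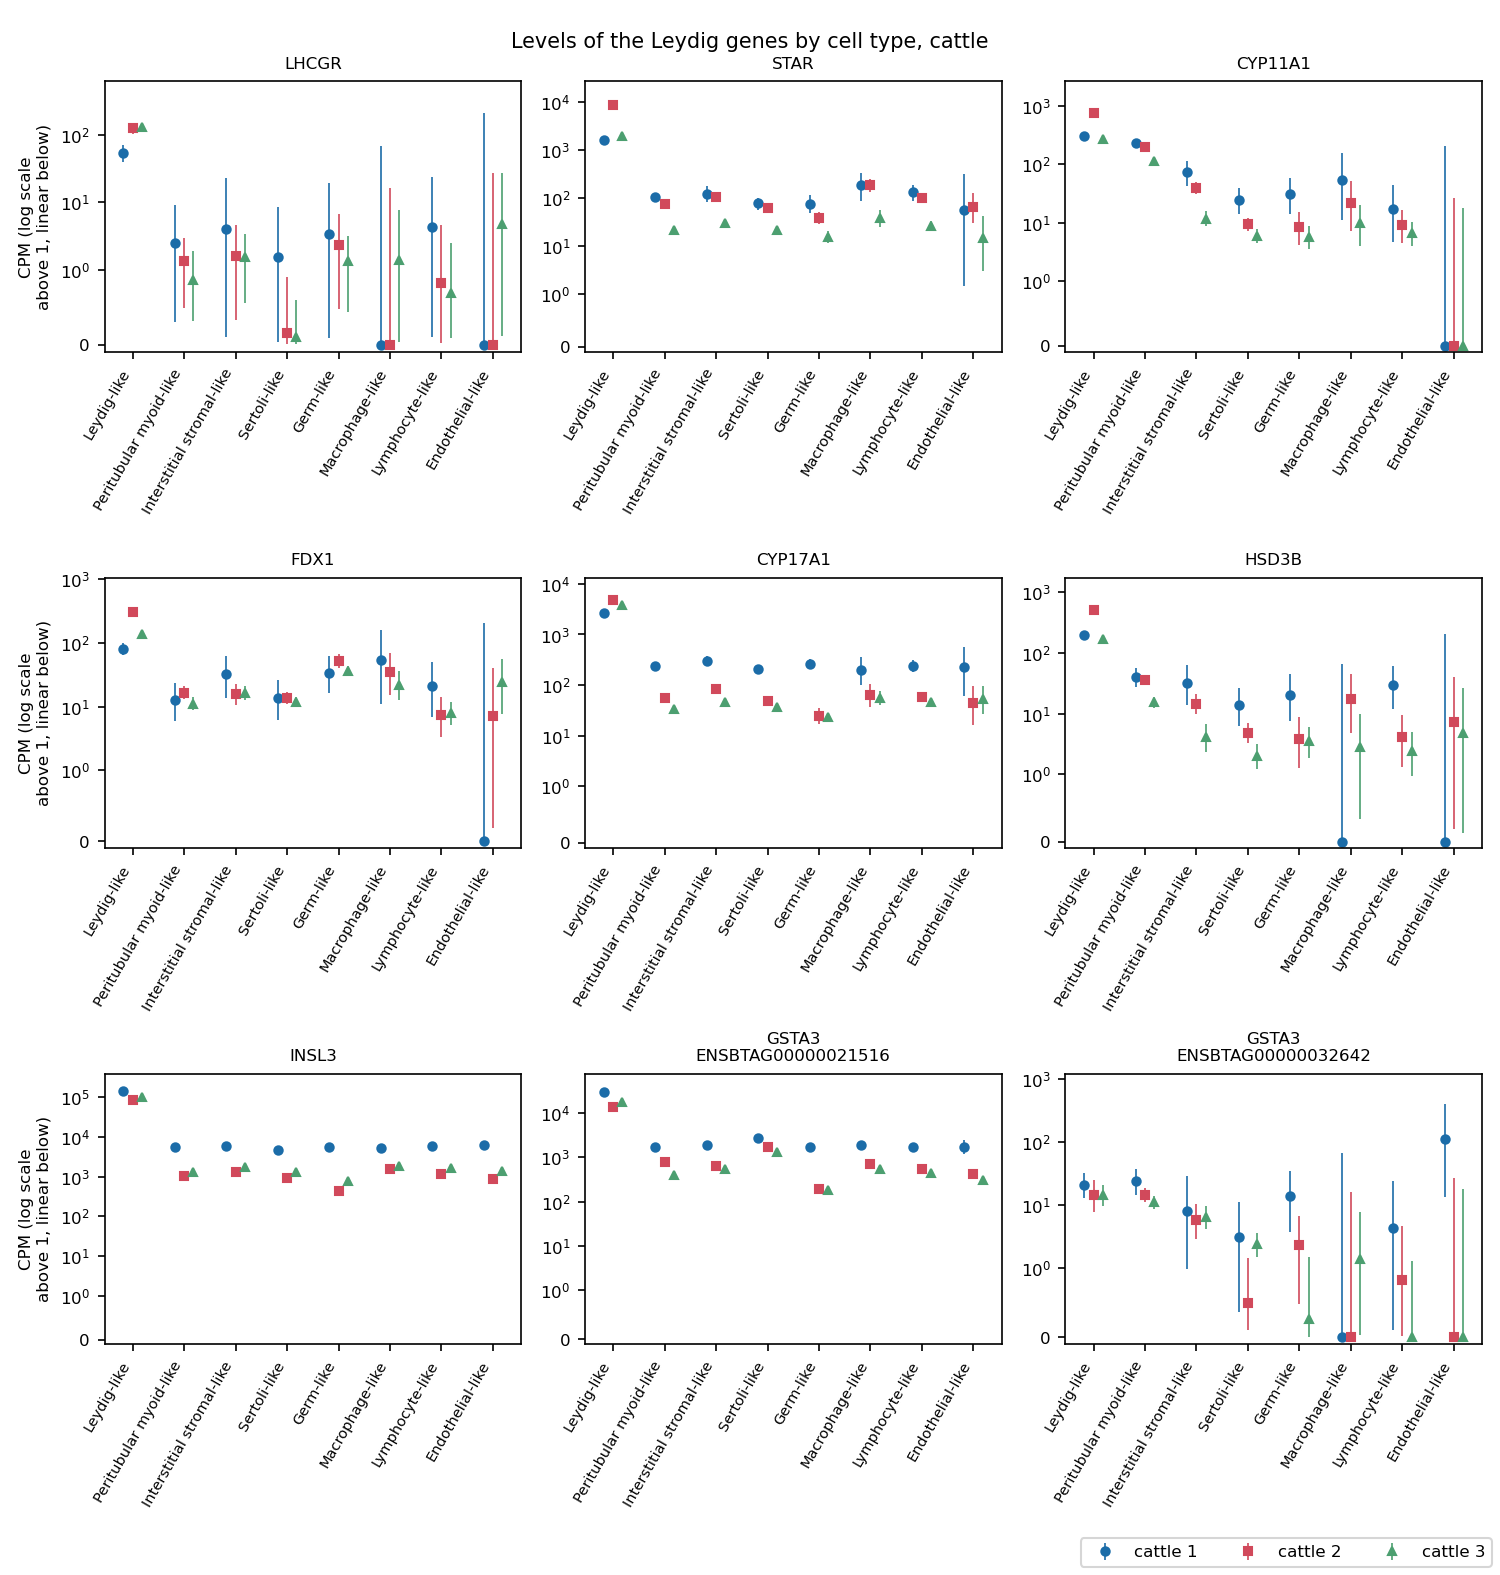
CPM (y axis, log scale above 1 and linear below) of the 9 cattle rows in each named cell type (x axis) of cattle 1, 2 and 3, with exact Poisson intervals that cover counting error only. Leydig-like cells are highest in each panel except the GSTA3 row ENSBTAG00000032642, and CYP11A1 and HSD3B are next highest in peritubular myoid-like cells of each animal.

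**Figure D4:**
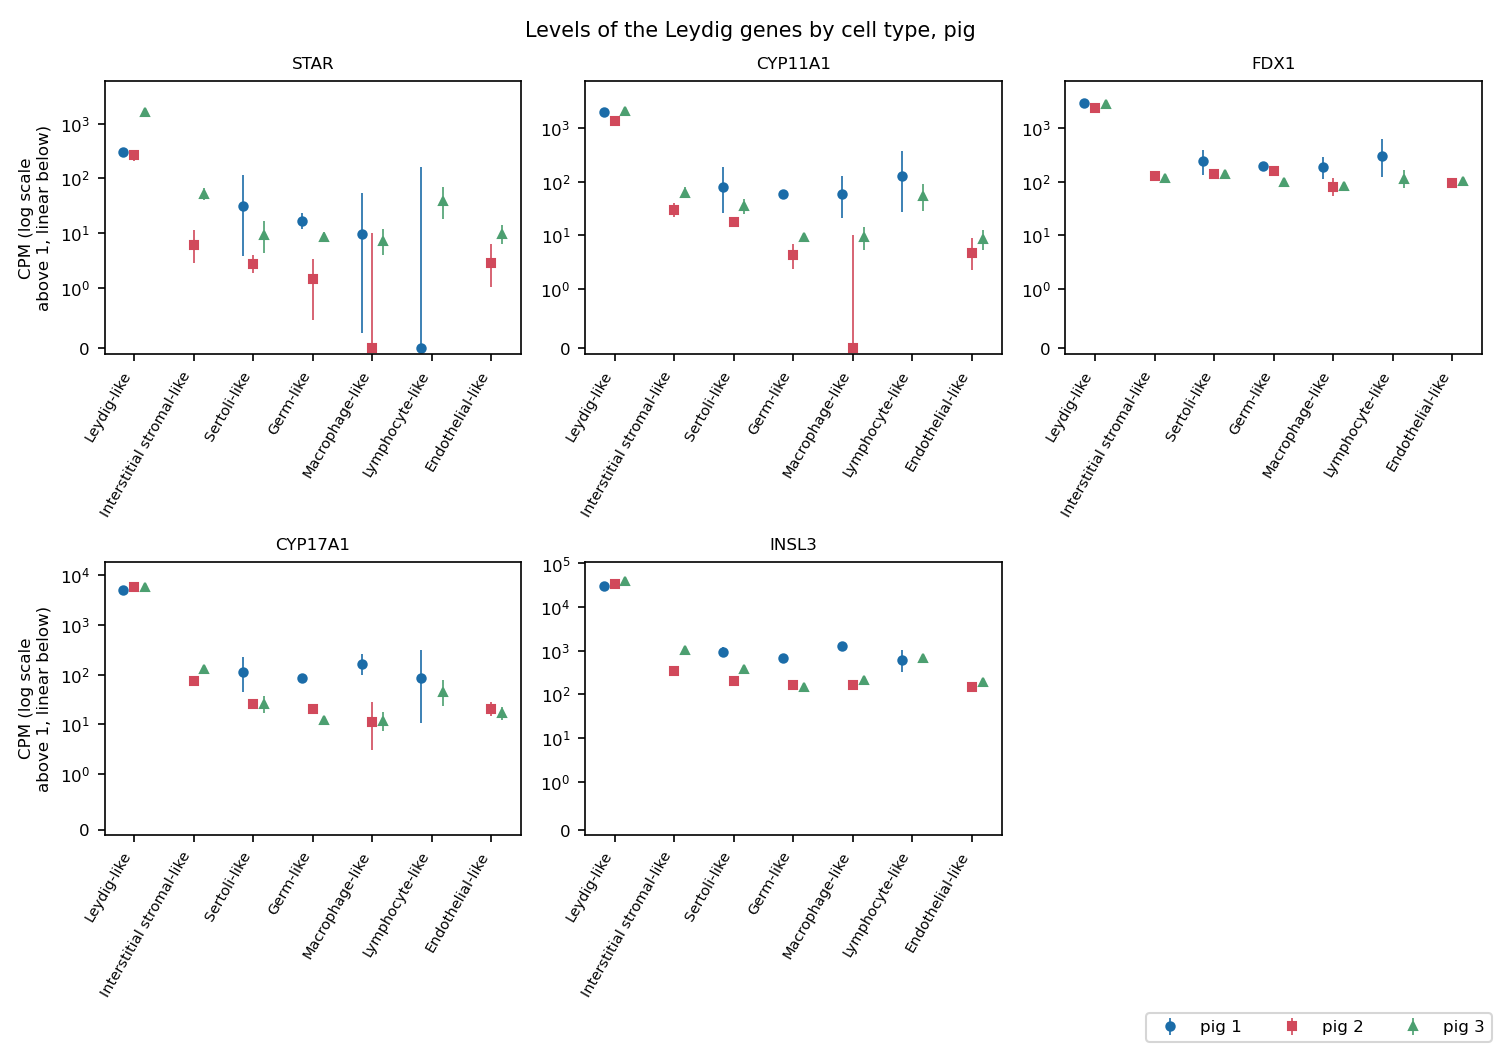
CPM (y axis, log scale above 1 and linear below) of the 5 pig genes in each named cell type (x axis) with at least 20 cells, in pig 1, 2 and 3, with exact Poisson intervals that cover counting error only. Leydig-like cells are highest in each panel, and STAR is higher in pig 3 (1653 CPM) than in pig 1 and 2.

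Outside the Leydig-like cells INSL3 was found in every other named type. In cattle 1 it lay between 4718 and 6460 CPM, in cattle 2 between 443 and 1542, and in cattle 3 between 792 and 1826. In pigs it lay between 607 and 1262 CPM in pig 1, between 145 and 339 in pig 2, and between 145 in germ-like and 1029 in interstitial stromal-like cells of pig 3. The 102656, 207987 and 283854 cattle barcodes with up to 50 UMIs each were treated as empty droplets and held 111270, 24508 and 17398 CPM of INSL3 in cattle 1, 2 and 3, above those other types in each animal. At 500 UMIs, the share of cells with a UMI of INSL3 was averaged over 3 cattle for each other named type. These means ran from 46.8% ± 34.9 in germ-like to 65.6% ± 20.9 in macrophage-like cells (91.0% to 95.4% unthinned), with a wide spread among animals. The share of cattle Leydig-like cells was 98.6% ± 2.35 (99.5% ± 0.88). In pigs 18.7% ± 14.5 of other cells had a UMI of INSL3 (62.2% ± 12.1 unthinned) against 99.7% ± 0.45 of Leydig-like cells (99.9% ± 0.13). The median depth was 968, 1825 and 5144 UMIs per Leydig-like cell and 724.5, 1669 and 4387 per other cell in cattle 1, 2 and 3. The part of free RNA in these shares was not tested in pigs, where no empty droplets were used.

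To set each gene against the empty droplets, its UMIs were counted per 1000 UMIs of INSL3 in each cell type and in the empty droplets of the same library. A ratio was called above where the lower limit of its interval exceeded the upper limit of the interval in empty droplets. These intervals cover the gene's own count and not that of INSL3. The part of free RNA in these ratios was not tested. In the Leydig-like cells themselves CYP17A1 stood at 1.24 to 1.68 times the ratio in empty droplets, above in 3 of 3 animals. The GSTA3 row ENSBTAG00000021516 stood at 0.48 to 0.89 times in these cells. CYP11A1 in myoid-like cells stood at 41.7, 183 and 83.2 per 1000 in cattle 1, 2 and 3, against 2.20, 5.99 and 2.84 in empty droplets, and so 18.9 to 30.6 times the ratio there. HSD3B in myoid-like cells stood at 3.57 to 7.53 times, GSTA3 of row ENSBTAG00000021516 in Sertoli-like cells at 2.51 to 5.46 times, FDX1 in germ-like cells at 20.3 to 76.2 times, and the low GSTA3 row ENSBTAG00000032642 in myoid-like cells at 19.7 to 60.2 times the ratio in empty droplets. Each of these was above the empty droplets, by their intervals, in 3 of 3 animals. CYP11A1 in interstitial stromal-like cells was also above in 3 of 3, at 2.30 to 5.39 times, and so was FDX1 in every other named type except endothelial-like cells. The GSTA3 row ENSBTAG00000021516 was above in 3 of 3 in stromal-like and myoid-like cells as well, at 1.11 to 2.22 times. So was CYP17A1 in Sertoli-like cells, at 3.06, 1.58 and 1.26 times in cattle 1, 2 and 3. In Leydig-like cells CYP17A1 was at 1.24, 1.68 and 1.64 times, so the 2 types were far apart in cattle 1 only. LHCGR was above by this rule in none of the 7 other named types, which held few UMIs of it. Its ratio there ran from 0 to 8.08 times, the highest from 1 UMI in endothelial-like cells of cattle 3. Germ-like cells of cattle 2 stood at 6.51 times from 3 UMIs, so a higher ratio of LHCGR in these types was not settled. STAR was at most 3.37 times in any of the 7 types. CYP17A1 in cattle 1 ran from 2.35 to 3.43 times the empty droplets in all 7 other types, and from 1.07 to 1.79 times in cattle 2 and 3. These comparisons were chosen after the levels were seen and are a description.

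**Figure D5:**
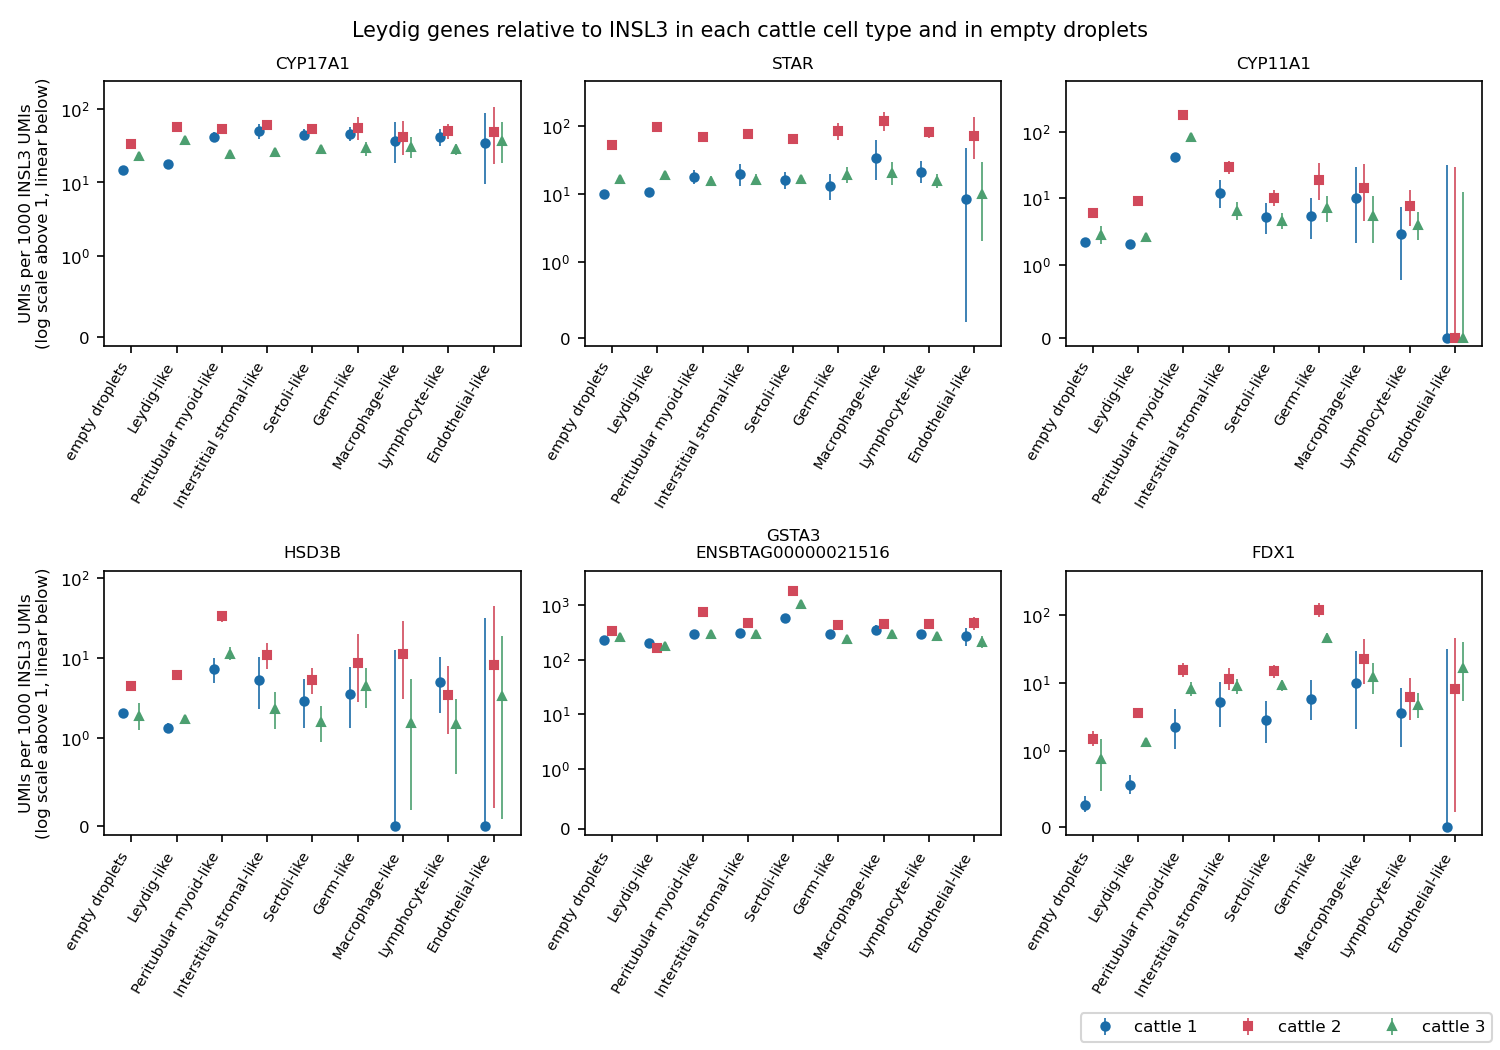
UMIs of 6 genes per 1000 UMIs of INSL3 (y axis, log scale above 1 and linear below) in empty droplets and in each named cell type (x axis) of cattle 1, 2 and 3, with exact Poisson intervals for the gene's own count. CYP11A1 and HSD3B rise above the empty droplets in peritubular myoid-like cells, GSTA3 in Sertoli-like cells and FDX1 in most types, with germ-like cells at 20.3 to 76.2 times, while STAR reaches at most 3.37 times.

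The steroid genes were also counted together within single Leydig-like cells. With each cell at 500 UMIs, all 4 of STAR, CYP11A1, CYP17A1 and FDX1 had a UMI in 0.21%, 4.99% and 0.77% of the cells of cattle 1, 2 and 3, and in 5.80%, 6.10% and 26.9% of the cells of pig 1, 2 and 3. The exact binomial intervals (95%) were 0.0255% to 0.758%, 3.19% to 7.39% and 0.159% to 2.24% in cattle and 4.36% to 7.53%, 2.01% to 13.7% and 17.5% to 38.2% in pigs. By these intervals pig 1 and pig 2 overlapped cattle 2, and pig 2 also overlapped cattle 3. None of the 4 was seen in 16.5%, 5.42% and 9.25% of cells in cattle 1, 2 and 3, and in 2.90%, 1.22% and 1.28% in pig 1, 2 and 3. Across single cells of an animal, Spearman's rho was taken between shares of UMIs without thinning, and not every pair is given. It was 0.23, 0.50 and 0.36 between CYP17A1 and STAR in cattle 1, 2 and 3. Between INSL3 and CYP17A1 it was 0.32, 0.31 and 0.45 in pig 1, 2 and 3 and 0.057, 0.35 and 0.30 in cattle 1, 2 and 3. Between INSL3 and FDX1 it was 0.021, -0.072 and 0.35 in pig 1, 2 and 3. Between CYP11A1 and INSL3 it was -0.095 and 0.060 in cattle 2 and 3. These values share cells and libraries and are a description.

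Set side by side, the Leydig-like cells of pigs held more CYP11A1, CYP17A1 and FDX1 and less INSL3 on average than those of cattle. How many of all genes differ as far between the species was not counted, so these genes are not shown to stand out. Pig means over cattle means were 4.07 for CYP11A1, 1.44 for CYP17A1, 15.4 for FDX1 and 0.31 for INSL3, and each had p = 0.1 in an exact permutation test (two-sided, 3 against 3 animals), the smallest p this design allows, or 0.13 adjusted over 5 genes. STAR was at 3962 ± 3797 CPM in cattle and 739 ± 792 in pigs (exact permutation p = 0.2). CPM is relative to all transcripts of the same cells, and counting at transcript ends depends on the annotation of each species, so these cannot be told apart from a difference in level. The enrichment in Leydig-like over other cells was compared between species by an interaction term in edgeR over 12768 genes listed in both tables, of which 1.32% were called larger in pig and 1.7% smaller. By edgeR 0 of the 5 genes shared by both species passed, as in DESeq2. Of the 5, 1 had an unadjusted p under 0.05 in edgeR, as had 1820 of all 12768 genes. That gene was CYP11A1, whose log2 fold change was larger in pig by 2.34 (SE 0.78, adjusted p = 0.13). The others differed by 0.57 for CYP17A1, 0.25 for FDX1, -0.02 for INSL3 and -0.44 for STAR. With the animal as a block in the fit, CYP11A1 passed at a difference of 2.75 (adjusted p = 1.6e-12), and without pig 1 it passed at 3.41 (adjusted p = 0.0085). Over 16 alternatives its adjusted p ran from 1.6e-12 to 0.39, and was 0.090 in DESeq2. The directions for INSL3 and STAR flipped when samples were scaled by library size alone, to 0.68 and 0.12, a setting that moved the median of all genes from -0.28 to 0.27 and the calls to 373 larger and 96 smaller in pig, in place of 169 and 217.

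The genes whose level across the sums of animal and cell type was most like each gene were found by Pearson's r of log2(CPM + 10), over 24 sums in cattle and 18 in pigs that share libraries and depth, as a description. In cattle RGN, the calcium-binding protein regucalcin, came first for INSL3 (r = 0.97), CYP17A1 (0.97) and GSTA3 of row ENSBTAG00000021516 (0.95). TM7SF2, a sterol reductase of cholesterol synthesis, came first for HSD3B (0.94) and STAR (0.93). TTC36 came first for LHCGR (0.98), TTYH2 for FDX1 (0.88), CCDC153 for CYP11A1 (0.89) and SEC24D for the GSTA3 row ENSBTAG00000032642 (0.82). In pigs the carbonyl and retinal reductase DHRS4 came first for INSL3 (0.98) and CYP17A1 (0.98), the sulfotransferase SULT1C3 for STAR (0.97) and ENSSSCG00000011147, which carries no symbol, for CYP11A1 (0.96).

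Further genes of steroid synthesis were taken from a list of 57 symbols. In cattle 42 rows were tested, of which 10 were higher and 5 lower in Leydig-like cells, beside 6.05% and 9.46% of all genes, with a median log2 fold change of 0.67 beside -0.35. The share of the list that was lower was near that of all genes. In pigs 43 were tested, of which 13 were higher and 4 lower, beside 4.83% and 3.56% of all genes, with a median of 0.72 beside -0.50. With the animal as a block, 17 were higher and 8 lower in cattle, where 1898 and 2799 of all 14202 genes were. FDXR, which hands electrons to the FDX1 product, was higher on the log2 scale by 3.68 in cattle and 3.12 in pigs. POR, the electron donor of CYP17A1, was higher at 1.01 and 3.20, and SOAT1, which stores cholesterol as esters, at 1.85 and 3.19. TSPO, a mitochondrial membrane protein once held to import cholesterol, was lower at -1.99 and -2.76. AKR1B1, an aldose reductase, was lower at -1.40 and -2.10. TSPO averaged 26.4 CPM in Leydig-like and 155 in other cells of cattle, and 10.3 against 72.9 CPM in pigs, and was lower in each of the 6 animals.

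Other steroid-converting enzymes on the list passed in the species named here, which is no test of a difference between species. In pigs CYP19A1, the aromatase that makes estrogens, was higher by 7.12 (SE 0.65, adjusted p = 4.9e-05), with 630 ± 494 CPM in Leydig-like cells against 4.80 ± 2.20 in others. In cattle CYP19A1 had too few counts to be tested, at 0.37 ± 0.64 CPM in Leydig-like cells, and the test of the difference between species did not pass (4.47, SE 1.95, adjusted p = 0.28). HSD11B2, which inactivates cortisol, was higher in pigs by 5.19, HSD17B4, an enzyme of peroxisomal fatty acid oxidation, by 5.10, HSD17B8 by 1.45 and the electron carrier CYB5B by 1.2. In cattle HSD17B7, which acts in cholesterol synthesis, was higher by 2.41, SRD5A1, the steroid reductase of dihydrotestosterone synthesis, by 2.33, HSD3B7, an enzyme of bile acid synthesis, by 2.15, and HSD17B14 by 1.28, while the AKR1C4 row ENSBTAG00000022564 was lower at -1.83. SRD5A1 and AKR1C4 were not analysed here in pig. HSD17B3, which makes testosterone, passed in neither species, at -3.21 in cattle (adjusted p = 0.095) and -1.69 in pigs (adjusted p = 0.19). Its level in pigs was 511 ± 52.9 CPM in Sertoli-like and 51.7 ± 47.6 in Leydig-like cells, a pair singled out after its values were seen. Of the 42 genes on the list tested for a difference between species, the Leydig-like enrichment was larger in pig for HSD17B4, HSD11B2 and POR and smaller for CREM and HSD3B7. Over all genes tested for this difference, 1.32% were called larger in pig and 1.7% smaller.

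Other genes on the list that passed were transferases, carriers and regulators. GSTA2 (3.47) and GSTA4 (1.60) were higher in cattle and GSTA1 (3.50) in pigs, all close relatives of GSTA3. In pigs the melanocortin receptor partner MRAP was higher by 4.32, the nuclear receptor NR0B1, a repressor of steroid genes, by 3.06, the cholesterol carrier STARD4 by 2.60 and PRKAR1A, a subunit of the cyclic AMP-dependent kinase, by 1.27. NR4A1, an immediate early nuclear receptor, was lower at -1.77 and the cyclic AMP-responsive factor CREM at -1.81. In cattle ACBD3, a Golgi protein, was higher by 1.01 and CREB1, which binds cyclic AMP response elements, lower at -1.64. PDE4B, which breaks down cyclic AMP, had no UMI among the 3942491 of cattle Leydig-like cells and 177 UMIs in other cells, which puts it at least 4.75-fold lower, with 3 counts over the group as the floor. Several of these calls were weak, with CREB1 lost in 9 of 13 alternatives, CYB5B in 8, PDE4B in 5 and NR4A1 and STARD4 in 4 each. The calls of POR, ACBD3 and HSD17B14 in cattle and of TSPO in pigs were lost in 3 of 13 each.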

How the data were processed

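Per the labels and the study's methods, live testis cells were loaded on the 10x Chromium v2 3' system, sequenced in a single Illumina lane and counted with Cell Ranger 2.1.0 on ARS-UCD1.2 for cattle and Sscrofa11.1 for pig, while the headers of the pig files name software version 3.0.2. The authors deposited raw UMI counts per gene and barcode, with no normalization. The cattle files hold 737280 barcodes each, empty droplets included, and the pig files only barcodes from 500 UMIs up. Totals ran from 5805223 to 53325608 UMIs in cattle and from 6245189 to 40099873 in pigs, lowest in cattle 1 and pig 1. The mouse library of the series was not used here.

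Cells were called with 3000 cells expected, the 99th percentile divided by 10, and at least 200 genes. The top 0.8% of cells per 1000 called, ranked by a simulated-doublet score, were left out. Cells were clustered with scanpy 1.11.5 from 2000 variable genes without the genes described or the list of pathway genes (30 components, 15 neighbours, resolution 1). A cluster was named where at least 3 markers of a type were 2-fold above the median cluster, in conditions set after clusters were seen and before any test. Clusters of another type with at least 2 Leydig markers among their 10 leading genes were left unnamed. That step alone counted LHCGR, STAR, CYP11A1, CYP17A1, HSD3B and INSL3 as Leydig markers in the main naming. Counts were summed per animal for Leydig-like and for all other cells, rows with at least 10 counts were kept, and edgeR 4.0.16 in R 4.3.3 was run after TMM scaling, with calls at an adjusted p of 0.05. DESeq2 1.42.0 was an alternative, as were other scaling, filters, clustering and cell calls, and leaving out each animal. Intervals (95%, exact Poisson or binomial) cover counting error only. For shares of cells, each cell was thinned to 500 UMIs, which left out 323 shallower cells of cattle 1. P-values of edgeR and DESeq2 rest on a spread between animals that is estimated with information shared among genes. Values as small as those of the fit with the animal as a block are therefore no measure of 1 gene's spread among 3 animals.

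The Leydig-like and other sums are taken from 1 testis library of each animal and are therefore paired by design, and their deviations from the group means correlated at 0.26 to 0.43 in cattle and 0.21 to 0.27 in pigs. As the study states no paired test, the fit without the animal as a block is given first.

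The genes and lists were chosen with earlier results of these data known. All genes in the 9 symbols were named, and from the pathway list those that passed in either species. For the nearest genes, the first of 3 was named, except for pig FDX1. Some genes of cholesterol supply, markers included, are not reported here.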

Additional observations from a re-analysis of the deposited data

Results flagged for a closer look

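By the interaction term in edgeR, the enrichment in Leydig-like over other cells differed between species for 5 of the 42 pathway genes tested. It was larger in pig for 3 and smaller for 2, beside 1.32% and 1.7% of all 12768 genes tested. HSD17B4, an enzyme of peroxisomal fatty acid oxidation, had a log2 fold change larger in pig by 4.37 (SE 0.48, adjusted p = 4.1e-05), with 72.2 CPM in Leydig-like against 73.3 in other cells of cattle and 1258 against 38.4 CPM in pigs. This call was kept in 16 of 16 alternatives. POR, which gives electrons to CYP17A1, was larger in pig by 1.97 (SE 0.42, adjusted p = 0.012), at 52.6 against 37.4 CPM in cattle and 301 against 35.0 in pigs, and lost its call in 1 of 16, without cattle 1 (adjusted p = 0.052). HSD11B2, which inactivates cortisol, was larger in pig by 5.68 (SE 1.52, adjusted p = 0.046), at 0.37 against 0.81 CPM in cattle and 175 against 4.84 in pigs, and lost its call in 8 of 16. HSD3B7, of bile acid synthesis, differed by -3.25 (SE 0.81, adjusted p = 0.031), at 39.9 against 12.8 CPM in cattle and 11.5 against 23.4 in pigs, and lost its call in 5 of 16. The factor CREM differed by -2.72 (SE 0.68, adjusted p = 0.033), at 4.56 against 4.37 CPM in cattle and 18.7 against 69.4 in pigs, and lost its call in 6 of 16.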

How the results depend on the processing

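Of the 5 pig genes, 5 kept their call in 13 of 13 alternatives, as did 7 of 9 cattle rows, the others being CYP11A1 and the low GSTA3 row. Counts over all genes moved more, and the cause was not tested. Higher and lower calls in cattle were 460 and 2925 with library size alone, 1898 and 2799 with the animal as a replicate block, and 155 to 1214 and 157 to 1718 when 1 animal was left out, lowest without cattle 2 and next without cattle 3 (298 and 340). In pigs they were 1480 and 2031 with the block, 1286 and 1244 from every barcode with at least 500 UMIs, and 179 to 485 and 33 to 408 with 1 animal left out, lowest without pig 1; lower calls were 903 in DESeq2 and 1007 with every gene that had a count. Calls larger and smaller in pig were 373 and 96 with library size alone, 508 and 807 with the block, and 78 to 156 and 49 to 151 with 1 animal left out; 412 were larger in DESeq2 and 336 smaller from 500 UMIs up. On the pathway list, cattle had 17 higher and 8 lower with the block, 3 lower from 500 UMIs up and 3 with doublets kept, and 1 to 15 and 0 to 4 with 1 animal left out, lowest without cattle 2. Pigs had 2 lower with the members among the variable genes, and 7 to 11 and 0 to 4 with 1 animal left out, lowest without pig 1. The species difference had 7 larger and 0 smaller with library size alone, 6 and 4 with the block, 6 larger in DESeq2, 1 smaller with DESeq2 size factors, and 1 to 3 and 0 to 2 with 1 animal left out. Of the 5 genes shared, 1 (CYP11A1) was larger in pig with the block, and 0 to 1 with 1 animal left out. Of the uncalled differences between species, that of CYP11A1 kept its sign and the other 4 changed it. With 1 animal left out they ran from -0.75 to 1.83 for CYP17A1, from -0.12 to 0.74 for FDX1, from -0.76 to 1.04 for INSL3 and from -1.66 to 0.39 for STAR. CYP17A1 was -0.75 and FDX1 -0.12 without cattle 1, and FDX1 -0.02 without pig 3. INSL3 was 0.68 with library size alone, 0.17 with DESeq2 size factors and in DESeq2, 0.086 with the block, 0.12 without cattle 2, 0.61 without cattle 3 and 1.04 without pig 1. STAR was 0.12 with library size alone, 0.35 without cattle 2, 0.15 without cattle 3 and 0.39 without pig 1. Empty droplets taken up to 100 UMIs and pooled over 3 cattle held 119 CPM of CYP11A1, against 152 up to 50 UMIs. In the same way CYP17A1 was at 819 against 960 CPM, and the GSTA3 row ENSBTAG00000021516 at 10216 against 12428. HSD3B was at 92.1 against 124 CPM, INSL3 at 36631 against 48067 and STAR at 922 against 1013. By animal, INSL3 went from 111270 to 102760 CPM in cattle 1 with the higher limit, but rose from 24508 to 26396 in cattle 2. In cattle 3 it rose from 17398 to 26474 CPM. Without thinning, cattle Leydig-like cells had a UMI in 53.2% for CYP11A1, 91.7% for CYP17A1, 33.4% for FDX1, 3.59% for the low GSTA3 row, 42.0% for HSD3B, 25.2% for LHCGR and 85.1% for STAR, and pig cells in 89.9% for CYP11A1, 97.2% for CYP17A1, 95.7% for FDX1 and 53.6% for STAR. Depth limits the shares of cells with a UMI and the genes with low counts.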
